A study of Mus musculus with 39 samples.

Results

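Interferon-stimulated genes are genes whose transcription rises when a cell is exposed to interferon. A list of 32 such genes was read by symbol from a table of 47561 genes, and all 32 symbols were found, each in 1 row. The rule uses symbols only and no measured value. The question asked here is how these 32 genes varied in mouse brain across doses and days after soman, a nerve agent that inhibits acetylcholinesterase.

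Mice received soman under the skin in 1 of 3 amounts, given as parts of the LD50 (the dose lethal to 50% of animals): 1/10 LD50, 1/5 LD50 and 1/2 LD50. Brain RNA was taken on day 1, day 3, day 7 or day 14 afterwards. Each of the 12 combinations had 3 biological replicates, and a single group of 3 received saline, which makes 39 libraries. The labels state tissue and treatment only, so strain, sex, age, brain region and the sampling day of the saline group are not given in the sources used here. The values are FPKM (mapped fragments scaled to transcript length and to the library's total), which correct for gene length and library size. Brain RNA mixes many cell types, and fewer cells of a type cannot be told apart from less RNA per cell.

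Type I interferons bind a receptor made of Ifnar1 and Ifnar2, and the kinases Jak1 and Tyk2 then activate transcription factors, Stat2 among them. A complex that holds Stat2 and Irf9 binds the interferon-stimulated response element in promoters. Its targets include Irf7, which raises interferon production further, antiviral proteins of the Ifit, Oas and Mx families, and Usp18, which dampens the receptor. In the brain, microglia, astrocytes, endothelial cells and neurons can all respond.

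The core of that response element was searched for as GAAANNGAAA, where N is any base, on both strands, in windows from 250 bases before to 50 bases after transcription starts (RefSeq, build GRCm38.p6). Of the 32 genes 22 had a window, and 9 of these 22 (40.9%) held the motif, against 3.99% of 27025 genes. Matches can overlap, as the 3 in Isg15 do. The stretches below are shown because they carry the sequence that names the gene class, and because 1 of them (Stat2) belongs to a gene that did not pass the test between days 1 and 3. Each stretch lies wholly upstream of the start, reads 5′ to 3′ in the direction of the gene, and has the matched bases in capitals (a match on the other strand reads TTTCNNTTTC).
Isg15 (chr4:156200850-156200921, minus strand): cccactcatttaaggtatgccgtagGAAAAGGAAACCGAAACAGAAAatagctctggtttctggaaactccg
Ifit1 (chr19:34640760-34640838, plus strand): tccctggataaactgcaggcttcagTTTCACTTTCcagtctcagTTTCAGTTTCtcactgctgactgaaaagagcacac
Ifit3 (chr19:34583348-34583441, plus strand): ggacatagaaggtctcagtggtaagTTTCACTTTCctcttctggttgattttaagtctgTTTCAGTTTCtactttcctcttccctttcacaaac
Bst2 (chr8:71537562-71537627, minus strand): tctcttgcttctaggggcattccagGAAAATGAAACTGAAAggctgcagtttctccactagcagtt
Stat2 (chr10:128270251-128270310, plus strand): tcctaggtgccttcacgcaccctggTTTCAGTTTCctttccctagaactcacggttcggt
The other genes with a match were Oas1a, Rsad2, Trim30a and Ifih1. The other 13 genes with a window, Irf7, Lgals3bp, Oasl2 and Xaf1 among them, did not have these letters in it, which says nothing about what binds there. Ifi27, Usp18, Rtp4, Oas2, Mx1, Mx2, Dhx58, Parp9, Parp14 and Zbp1 had no window.

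FPKM summed to between 296322 and 342230 per library, which does not give the number of reads, since FPKM are already scaled to the library's total. The sums were 296479 to 310421 at day 1 and 318364 to 342230 at day 7, without overlap. The share of FPKM from mitochondrial genes was 7.17% to 15.4% in 37 libraries and 23.1% and 27.6% in replicates 2 and 3 of the 1/10 LD50 group at day 7. In 7 libraries, 46.34% to 77.61% of the genes that were over 2-fold apart in the other replicates of the group lay between them, at 0.3 to 0.7 of the way: replicate 3 of saline, of all 3 day 1 groups and of the 1/10 and 1/5 LD50 groups at day 14, and replicate 2 of the 1/10 LD50 group at day 7. Only genes with a mean of 5 FPKM or more in those other 2 replicates were used. They numbered 39 to 67, except for 469 with replicate 2 of the 1/10 LD50 group at day 7. In each of the 7 libraries, this share was above that of every library of the other groups placed between the same 2 replicates. Replicate 3 of the 1/10 LD50 group at day 3 had 58.72% but was not among the 7. There, a library of another group reached 61.47%. Counts without these 7, or without the 2 libraries rich in mitochondrial RNA, are given beside the results or with the other alternatives.

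Most of the 32 genes were expressed at low levels. Averaged over all 39 libraries, 4 genes reached 5 FPKM or more (Ifi27 at 19.4, Stat2 at 7.98, Lgals3bp at 5.60 and Cmpk2 at 5.43), 11 lay between 1 and 5 FPKM, and 17 lay below 1. The lowest was Mx1, a GTPase that blocks influenza viruses, at 0.0619 FPKM. For testing, a gene needed 1 FPKM or more in at least 3 libraries, which 23 of the 32 and 14701 genes in all met. Of the 23, 3 met it only with the help of day 3 libraries: Ifi44 and Mx2, each with 3 of their 4 libraries at 1 FPKM or more at day 3, and Ifih1, with 5 of 7. Levels were compared as log2(FPKM + 1), a scale that understates the change of genes near or below 1 FPKM.

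The mean of log2(FPKM + 1) over the 32 genes was, among the soman days, lowest at days 1 and 14 and highest at day 3. In saline it was 1.25 in replicate 1, 1.67 in replicate 2 and 1.51 in replicate 3. At day 1 the 9 libraries ran from 0.978 to 1.23 with a median of 1.06, and at day 3 from 1.39 to 1.93 with a median of 1.43. No day 3 library fell inside the day 1 range. The day 3 mean was 1.53, and 1.48 without its highest library, beside 1.48 in saline. At day 7 the range was 1.04 to 1.44 with a median of 1.21, and at day 14 it was 0.978 to 1.19 with a median of 1.06. The day 7 range met that of day 3 only at its upper end, and the day 14 range lay within that of day 1.

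**Figure D1:**
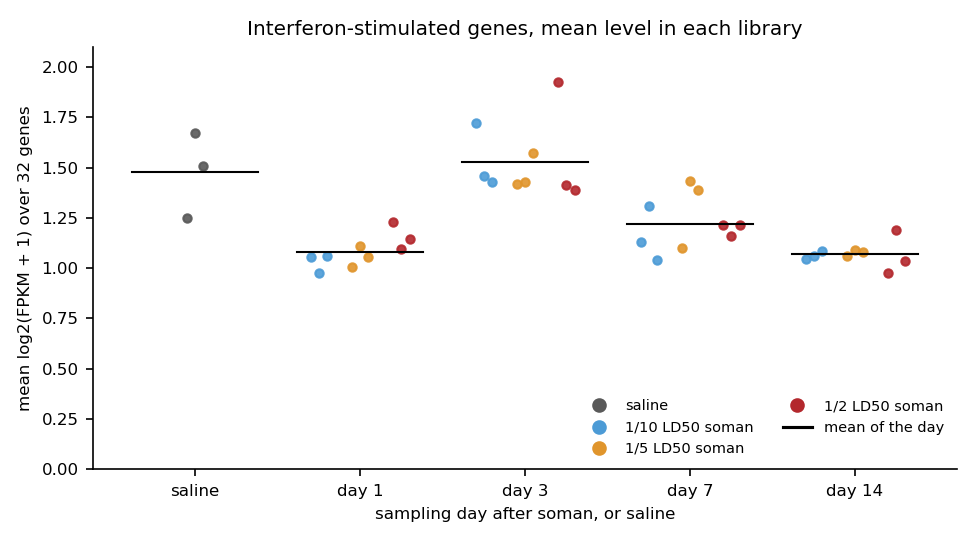
Mean of log2(FPKM + 1) over the 32 interferon-stimulated genes (vertical axis) in each of the 39 libraries, by sampling day (horizontal axis) and dose (colour); black lines are the mean of each day. The 9 day 3 libraries (1.39 to 1.93) lie above the 9 day 1 libraries (0.978 to 1.23), and saline spans 1.25 to 1.67.

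The rise from day 1 to day 3 covered most of the list. Of the 23 tested genes 19 rose and 0 fell (limma, Benjamini-Hochberg adjusted over all genes), where 12.9% of all tested genes rose. The 19 include Ifi44, Mx2 and Ifih1, which were tested only because they were high at day 3. Of the other 20 tested genes 16 rose. The median log2 change of the 23 was 0.41, against 0.03 over all genes, and none of the 23 was below 0. In 7 tested genes, and in Oas1a among the untested, all 9 day 3 libraries lay above all 9 day 1 libraries, which was so for 1.65% of all tested genes. The contrast does not use the saline level. No sampling day had a saline group known to be its own. A change with time after soman therefore cannot be told apart from other differences between sampling days. Leaving out any 1 library gave 18 to 20 genes, and leaving out the 7 libraries named above gave 16.

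Among the transcription factors, Irf7, which switches on interferon genes, moved most. Its FPKM at day 1 ran from 0.463 to 1.41 with a median of 0.859, and at day 3 from 2.97 to 7.39 with a median of 4.18. The ranges did not overlap, and the day means differed 5.41-fold. The log2 change was 1.56 ± 0.17 (SE, 9 against 9 libraries; adjusted p = 3.52e-07). Irf9, a DNA-binding partner of Stat2, went from 2.76 to 4.90 at day 1 (median 2.94) to 3.93 to 6.61 at day 3 (median 4.62), with overlap, and rose by 0.40 ± 0.08 (adjusted p = 0.000678). Irf1, a factor induced by interferon gamma as well, rose by 0.41 ± 0.10 (adjusted p = 0.0048), with 1 library, replicate 1 of the 1/2 LD50 group, at 6.52 FPKM and the other 8 between 1.76 and 2.85. Stat2 stood apart from these. Its levels of 7.60 to 8.67 FPKM at day 1 lay inside those of 5.88 to 11.3 at day 3, and the change was 0.04 ± 0.07 (adjusted p = 0.671).

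Isg15 encodes a small ubiquitin-like protein that is attached to other proteins, and Usp18 is the enzyme that removes it. Isg15 stood at 0.864 to 1.74 FPKM at day 1 (median 1.13) and at 1.56 to 4.45 at day 3 (median 2.40). In 8 of the 9 day 3 libraries it was above every day 1 library, and its log2 change was 0.62 ± 0.14 (adjusted p = 0.00181). Usp18 went from 0.386 to 0.737 FPKM (median 0.420) to 0.607 to 1.71 (median 0.857), also with 8 of 9 above day 1, and rose by 0.42 ± 0.08 (adjusted p = 0.000335). Both genes thus roughly doubled in mean FPKM, by 2.01-fold and 2.07-fold.

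The Ifit proteins bind foreign RNA and the Oas proteins make a messenger that activates an RNase. Ifit3 stood at 0.606 to 2.48 FPKM at day 1 (median 1.15) and at 2.66 to 6.96 at day 3 (median 4.14). The 2 ranges did not overlap, and Ifit3 rose by 1.10 ± 0.16 (adjusted p = 2.39e-05). Its neighbours on chromosome 19 did not all follow at the same size: Ifit1 changed by 0.53 ± 0.11 (adjusted p = 0.00141) and Ifit2 by 0.21 ± 0.11 (adjusted p = 0.159). Oasl2, at 0.380 to 0.760 FPKM at day 1 and 1.04 to 2.74 at day 3, rose by 0.68 ± 0.11 (adjusted p = 6.76e-05) without overlap. Mx2, tested only through its day 3 libraries, differed by 0.28 ± 0.07 (adjusted p = 0.00423), with overlapping ranges. Ifit3, Oas1a, Oasl2, Mx2 and Trim30a have close relatives in the genome, and how reads were shared among them is not given in the sources used here.

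The smallest p-values of this step, beside that of Irf7, belonged to Lgals3bp and Ifi27. Lgals3bp, a secreted glycoprotein that binds galectin 3, stood at 3.06 to 5.47 FPKM at day 1 (median 4.34) and at 6.28 to 11.4 at day 3 (median 9.45). It rose by 0.92 ± 0.10 (adjusted p = 2.61e-07), with no overlap. Ifi27, a small membrane protein, went from 11.7 to 20.5 FPKM (median 13.4) to 22.1 to 39.6 (median 31.0), a log2 change of 1.05 ± 0.11 (adjusted p = 2.61e-07). It too had no overlap between days, and it was the most abundant of the 32 genes. Bst2 (tetherin), which holds budding viruses to the cell surface, went from 1.79 to 3.37 FPKM to 4.48 to 10.9 and rose by 1.07 ± 0.14 (adjusted p = 4.6e-06). Rtp4, a receptor chaperone, rose by 0.60 ± 0.09 (adjusted p = 2.11e-05), again with every day 3 library above day 1.

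The remaining genes that rose were Xaf1 (0.67 ± 0.12), Ifi35 (0.40 ± 0.11), Parp9 (0.27 ± 0.07) and Samd9l (0.18 ± 0.06). Ifi44 (0.40 ± 0.10) and the RNA sensor Ifih1 (0.32 ± 0.06) passed too, having been tested only through their day 3 libraries, and Ifi44 did not pass without the 7 libraries (adjusted p = 0.0628). Cmpk2, a nucleotide kinase of mitochondria, and the ubiquitin ligase Trim25 did not pass the test, with 0.10 ± 0.05 each (adjusted p = 0.117 for Cmpk2 and adjusted p = 0.172 for Trim25).

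**Figure D2:**
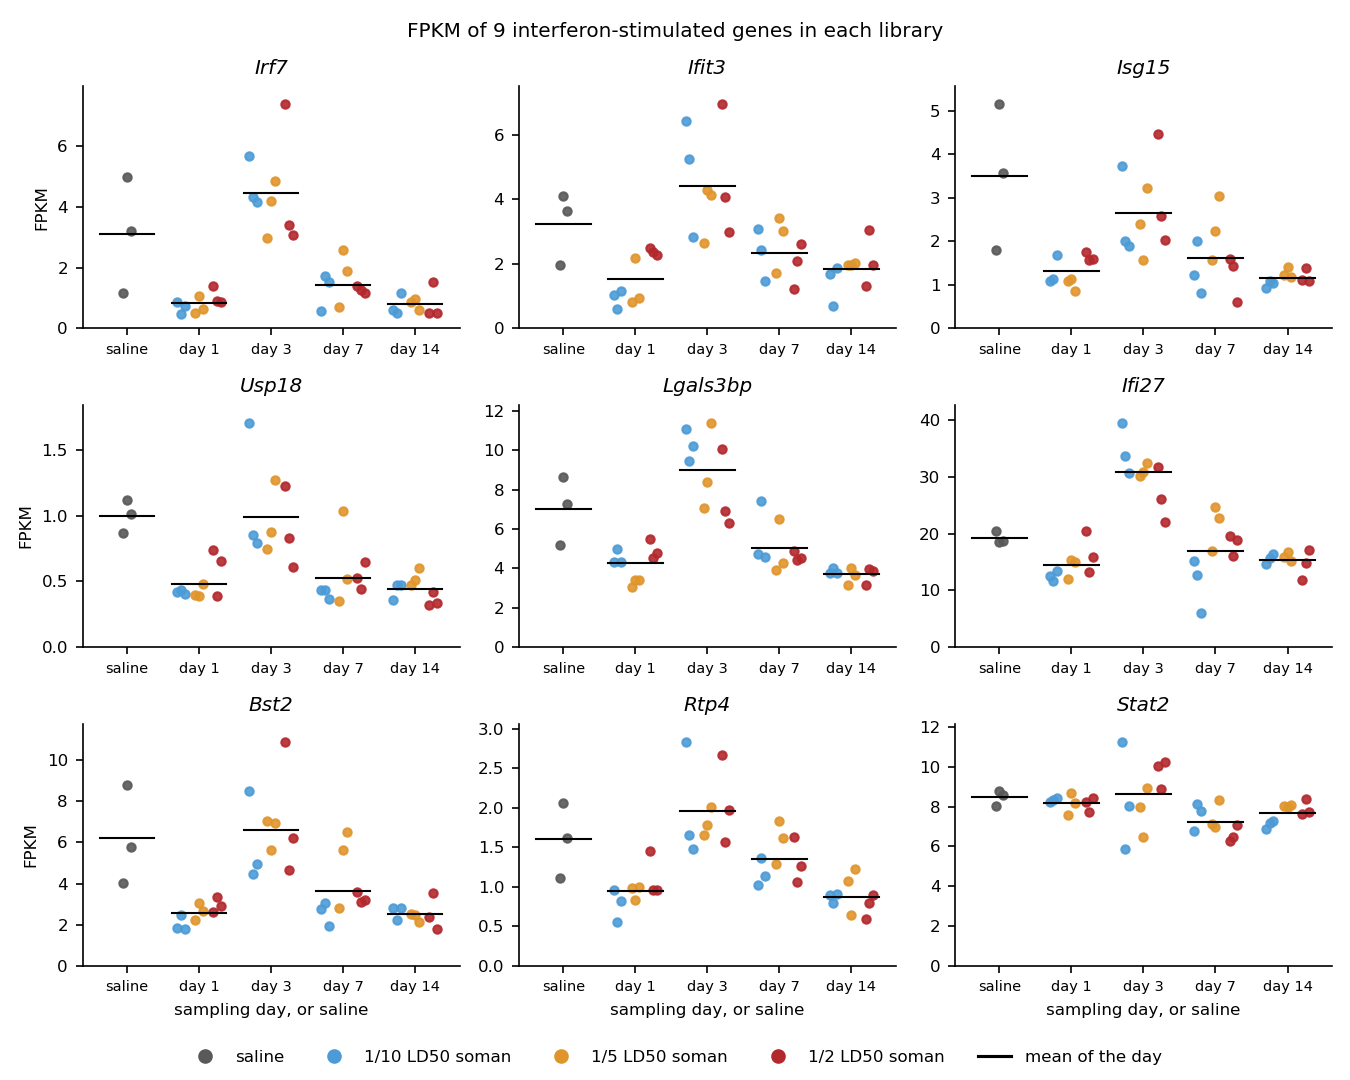
FPKM (vertical axes, each from 0) of 9 interferon-stimulated genes in every library, by sampling day and dose, with the mean of each day as a black line. Irf7, Ifit3, Lgals3bp, Ifi27, Bst2 and Rtp4 have every day 3 library above every day 1 library, while Stat2 stays between 5.88 and 11.3 throughout.

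The 9 genes below the testing limit were Dhx58, Dtx3l, Mx1, Oas1a, Oas2, Parp14, Rsad2, Trim30a and Zbp1. All had a higher mean at day 3 than at day 1. With no limit on low values, and so with 37782 genes tested, 24 of the 32 rose from day 1 to day 3, where 3.69% of all genes did. Of the 9, 6 rose: Rsad2, Oas2, Mx1, Zbp1, Oas1a and Trim30a. Oas1a rose by 0.46 ± 0.08 (adjusted p = 0.000765) and Trim30a, a ubiquitin ligase, by 0.22 ± 0.05 (adjusted p = 0.00799), while Dhx58, Dtx3l and Parp14 did not pass. Zbp1, a sensor of Z-form nucleic acid, rose by 0.58 ± 0.16 (adjusted p = 0.0224), with 1 library far above the rest. Its day 3 levels were 3.81 FPKM in replicate 1 of the 1/2 LD50 group and 0.136 to 0.628 in the other 8, against 0 to 0.198 at day 1.

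That library was the highest of all 39 for 16 of the 32 genes. It also had the highest sum of 17 blood leukocyte markers at day 3, 11.9 FPKM against 2.50 to 4.70 in the other 8, led by Ly6c2 at 5.31 FPKM, and the highest endothelial sum, 590 FPKM against 463 to 512. Of the 17, the T cell marker genes Cd3d and Cd3e and the B cell gene Ms4a1 were at 0 in it. Apart from Ly6c2, the levels of the other leukocyte markers in this library are not given here. The part of these markers in its values was not tested. Without this library 18 genes rose from day 1 to day 3. Ly6c2 and these lymphocyte genes were chosen after their values were seen.

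From day 3 to day 7 the list came down. Of the 23 tested genes 11 fell and 0 rose, where 3.97% of all genes fell, and all 23 changes were below 0, with a median of -0.26 against -0.04 over all genes. Ifi27 stood at 6.04 to 24.7 FPKM at day 7 (median 16.9) and fell by 0.89 ± 0.11 on the log2 scale (adjusted p = 9.17e-06). Lgals3bp, at 3.93 to 7.42 FPKM (median 4.56), fell by 0.73 ± 0.10 (adjusted p = 2.13e-05). Irf7, at 0.560 to 2.58 FPKM (median 1.39), fell by 1.17 ± 0.17 (adjusted p = 8.49e-05), and it alone had every day 7 library below every day 3 library, as 0.102% of all tested genes had. Ifit3 fell by 0.68 ± 0.16 (adjusted p = 0.0141) and Isg15 by 0.49 ± 0.14 (adjusted p = 0.0336), both with overlap. Neither passed without the 2 libraries rich in mitochondrial RNA (adjusted p = 0.121 for Ifit3 and adjusted p = 0.0978 for Isg15) or without the 7 (adjusted p = 0.0559 for Ifit3 and adjusted p = 0.0663 for Isg15), and the call of Isg15 was lost in 12 of 25 alternatives. The other 6 that fell were Bst2, Usp18, Oasl2, Ifih1, Rtp4 and Parp9. Ifih1 was tested only because it was high at day 3, as were Ifi44 and Mx2 among the 23. The count was 8 without the 7 libraries and 8 without the 2. Leaving out 1 library at a time gave 8 to 14 genes, and without a limit on low values 8 of the 32 fell, where 0.715% of all genes did. A fit of the day 3 and day 7 groups alone gave 4.

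From day 7 to day 14 fewer genes passed the test. Of the 23, 5 fell and 0 rose, where 11.5% of all genes fell. Rtp4, at 1.02 to 1.83 FPKM at day 7 (median 1.29) and 0.595 to 1.22 at day 14 (median 0.894), fell by 0.33 ± 0.09 (adjusted p = 0.00485). Lgals3bp reached 3.13 to 3.997 FPKM at day 14 (median 3.76), a further fall of 0.34 ± 0.10 (adjusted p = 0.00861). Mx2, at 0.433 to 0.982 FPKM at day 7 (median 0.578) and 0.277 to 0.557 at day 14 (median 0.414), fell by 0.20 ± 0.07 (adjusted p = 0.029). Irf1 and Xaf1 were the other 2, and Xaf1 did not pass in 16 of 25 alternatives, the replicate block among them (adjusted p = 0.0518). Irf7 (-0.41 ± 0.17, adjusted p = 0.0742), Isg15 (-0.23 ± 0.14, adjusted p = 0.237) and Ifit3 (-0.23 ± 0.16, adjusted p = 0.298) did not pass. The count was 2 without the 2 libraries rich in mitochondrial RNA, 2 without replicate 2 of the 1/10 LD50 group at day 7, and 1 without the 7 libraries that lie between their replicates. By day 14, 13 of the tested genes and 2 of the untested had all 9 libraries below all 9 of day 3, where 2.19% of all tested genes did. The 13 include Ifi44, Mx2 and Ifih1, which were tested only because they were high at day 3.

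Between days 1 and 14 no gene of the list passed the test. By limma 0 of the 23 differed, and 1 (Trim25) did at an unadjusted p under 0.05, where 14.9% of all genes differed. Irf7 changed by -0.02 ± 0.17, Isg15 by -0.09 ± 0.14 and Ifit3 by 0.19 ± 0.16. Over all 4 days, 21 of the 23 varied by an F-test, where 49.5% of all genes did (18 without the 7 libraries and 20 without the 2). Stat2 was among the 21 (adjusted p = 0.0414), as were Ifi44, Mx2 and Ifih1, tested only through their day 3 libraries. Cmpk2 and Ifit2 did not pass. The lowest p-values were those of Lgals3bp (adjusted p = 4.19e-09), Ifi27 (adjusted p = 3.25e-08) and Irf7 (adjusted p = 3.6e-08). Of all 32 genes, 31 had their highest soman mean at day 3. The exception was Dhx58, a regulator of RNA sensing, with 0.697 FPKM at day 3 and 0.734 at day 7.

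**Figure D3:**
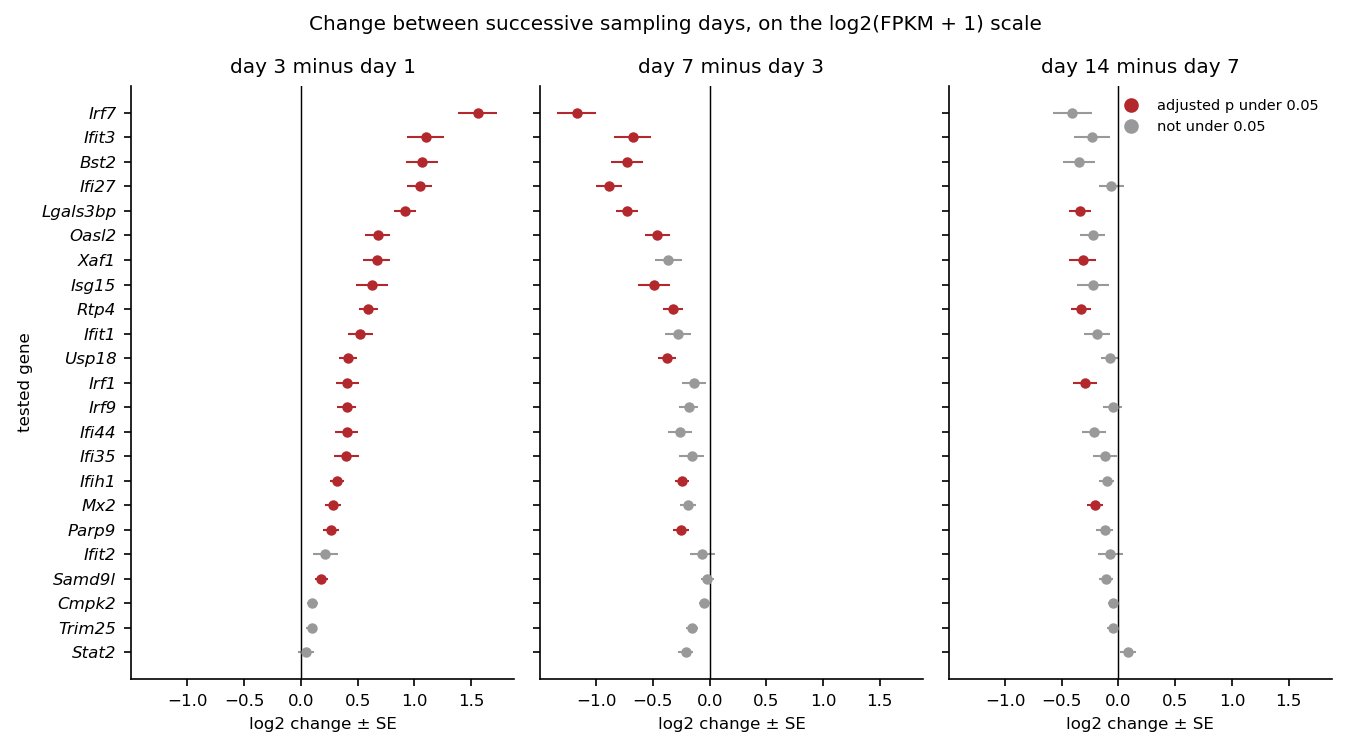
Log2 change on the log2(FPKM + 1) scale (horizontal axes, points with SE bars) of the 23 tested genes between successive sampling days over the 3 doses, ordered by the first step. Of the 23, 19 rose at the first step, 11 fell at the second and 5 fell at the third (red, adjusted p under 0.05). Ifi44, Mx2 and Ifih1 were tested only through their day 3 libraries.

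Against saline the picture depended on the 3 saline libraries, which differed from each other. Replicate 1 was the lowest of the 3 for 28 of the 32 genes and replicate 2 the highest for 25. Irf7 stood at 1.15, 4.97 and 3.20 FPKM in saline replicates 1, 2 and 3, Isg15 at 1.79, 5.15 and 3.57, and Ifit3 at 1.96, 4.09 and 3.65. Every day 3 library but 2 lay within the saline range for Irf7, and every one but 1 for Isg15. Day 1 and day 14 libraries were mostly lower than saline. In 9 of the tested genes all 9 day 1 libraries lay below all 3 saline libraries (2.12% of all tested genes), and in 12 all 9 day 14 libraries did (3.31%). Since all these comparisons share the same 3 saline libraries, they are not independent of each other.

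By the test, 6 of the 23 genes were lower at day 1 than in saline over the 3 doses, where 0.306% of all genes were. These were Bst2 (-0.98 ± 0.20, adjusted p = 0.0141), Isg15 (-0.90 ± 0.20, adjusted p = 0.0328), Oasl2 (-0.70 ± 0.16, adjusted p = 0.0328), Lgals3bp, Irf7 and Ifi44. Bst2 stood at 4.02, 8.79 and 5.78 FPKM in saline, above all 9 day 1 libraries, and Oasl2 at 1.04, 2.36 and 1.48, likewise above all. With replicate as a block Ifi44 did not pass (adjusted p = 0.0611). Ifit3, lower by 0.76 ± 0.23 on average at day 1, did not pass (adjusted p = 0.223). At day 14, 8 of the 23 were lower, where 0.748% of all genes were, led by Lgals3bp (-0.75 ± 0.14, adjusted p = 0.00419), Isg15 (-0.99 ± 0.20, adjusted p = 0.00814) and Bst2 (-0.99 ± 0.20, adjusted p = 0.00845). Lgals3bp stood at 5.19, 8.62 and 7.28 FPKM in saline, above all 9 day 14 libraries. Ifi44, Oasl2, Irf7, Usp18 and Parp9 were the other 5, and Ifit3 did not pass (-0.57 ± 0.23, adjusted p = 0.333). Markers of other cells were lower in the same libraries. Of 5 tested red cell markers 4 fell, and the sum of all 7 went from 795 to 926 FPKM in saline to 161 to 517. Of 13 tested meningeal fibroblast markers 8 fell, and the sum of all 14 went from 82.6 to 96.1 FPKM to 56.3 to 69.4. The sum of oligodendrocyte markers was 3222 to 3409 FPKM in saline and 2449 to 3012 at day 14, with 0 of 9 past the test. Their part in the result was not tested. Leaving out saline replicate 2 or saline replicate 3 took both counts to 0, as did leaving out the 7 libraries.

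At day 3 the list was at about the saline level, with 10 of the 23 changes below 0. Of the 23, 3 were higher, where 6.46% of all genes were. Ifi27, at 20.5, 18.6 and 18.8 FPKM in saline, was below all 9 day 3 libraries and rose by 0.63 ± 0.16 (adjusted p = 0.00643). Irf1 rose by 0.44 ± 0.15 (adjusted p = 0.0367) from 1.39, 1.92 and 1.48 FPKM, and Xaf1 by 0.48 ± 0.17 (adjusted p = 0.0458) from 0.708, 2.03 and 0.986. With replicate as a block Xaf1 did not pass (adjusted p = 0.0528). Irf7 (0.49 ± 0.24, adjusted p = 0.167), Isg15 (-0.27 ± 0.20, adjusted p = 0.364) and Ifit3 (0.34 ± 0.23, adjusted p = 0.328) did not pass at day 3. At day 7, 7 were lower, where 10.5% of all genes were, led by Isg15 (-0.77 ± 0.20, adjusted p = 0.00884), Usp18 (-0.40 ± 0.11, adjusted p = 0.0151) and Ifi44 (-0.50 ± 0.15, adjusted p = 0.02), while Irf7 (-0.69 ± 0.24, adjusted p = 0.0538) and Ifit3 (-0.34 ± 0.23, adjusted p = 0.355) did not pass. The mean of all 12 soman groups was lower in 2 genes, where 2.57% of all genes differed: Isg15 (-0.73 ± 0.18, adjusted p = 0.0262) and Ifi44 (-0.53 ± 0.13, adjusted p = 0.0308), the latter at 0.505, 1.67 and 0.950 FPKM in saline and 0.130 to 1.53 after soman. Irf7 (-0.59 ± 0.22, adjusted p = 0.148) and Ifit3 (-0.33 ± 0.21, adjusted p = 0.441) did not pass there. Without the 7 libraries all 3 of these counts were 0 too, and without saline replicate 2 or 3 those of day 7 and of the 12 groups were 0. Leaving out 1 library gave 1 to 4 genes at day 3, and 6 for the 12 groups without replicate 1 of the 1/2 LD50 group at day 3.

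**Figure D4:**
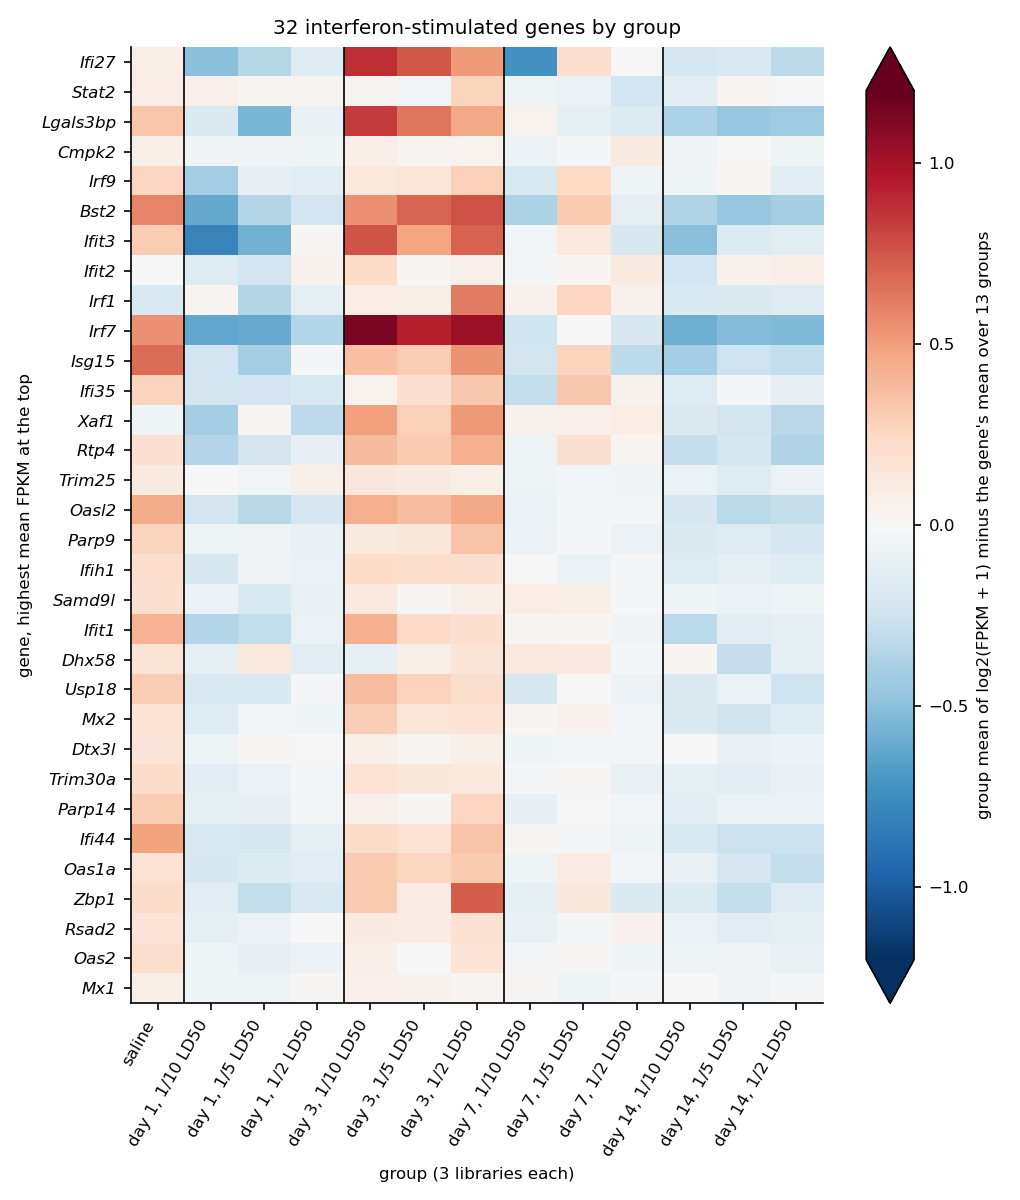
Group mean of log2(FPKM + 1) minus the gene's mean over the 13 groups (colour) for all 32 genes (rows, the most abundant at the top) in saline and the 12 soman groups (columns, 3 libraries each). The day 3 columns are mostly red and the day 1 and day 14 columns mostly blue, and 31 of the 32 genes have their highest soman day mean at day 3. Against saline, 14 of the 32 genes besides Trim25 have a higher mean FPKM at day 3. Trim25 is nearly level, at 1.2035 FPKM at day 3 and 1.2032 in saline.

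Single groups of 3 against saline gave few calls, and without the 7 libraries none (0). Over the 12 groups the change ran from -1.17 to 0.59 for Irf7, from -1.08 to -0.14 for Isg15 and from -1.11 to 0.45 for Ifit3, and Irf7 and Ifit3 passed in none (0). At day 1, Bst2 (1.84, 2.46 and 1.79 FPKM; -1.2 ± 0.24, adjusted p = 0.012) and Irf9 (-0.67 ± 0.14, adjusted p = 0.0174) were lower at 1/10 LD50, where 0.347% of all genes differed. Neither call held when saline replicate 2 or 3, or replicate 3 of the soman group, was left out. Irf9 was at 2.94, 2.86 and 2.81 FPKM there and at 5.27, 4.96 and 5.30 in saline. No gene of the 23 passed at 1/5 LD50 (0, where 0.0136% of all genes did) or at 1/2 LD50 (0, where 0.116% did). At day 3, Ifi27 was higher at 1/10 LD50 (39.6, 33.7 and 30.7 FPKM; 0.81 ± 0.19, adjusted p = 0.00992; 6.97% of all genes) and at 1/5 LD50 (30.2, 31.0 and 32.4 FPKM; 0.67 ± 0.19, adjusted p = 0.0291; 8.6% of all genes). The second of these was lost on leaving out any 1 of its 6 libraries. Irf1 was higher at 1/2 LD50 (6.52, 2.17 and 2.85 FPKM; 0.80 ± 0.18, adjusted p = 0.0063; 8.44% of all genes), a call that was lost without replicate 1.

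At day 7, 6 genes were lower at 1/10 LD50, where 19.5% of all genes differed, among them Ifi27 (15.3, 12.7 and 6.04 FPKM; -0.80 ± 0.19, adjusted p = 0.00555), Bst2 (2.75, 3.06 and 1.94 FPKM; -0.96 ± 0.24, adjusted p = 0.00745) and Isg15 (1.22, 2.01 and 0.816 FPKM; -0.90 ± 0.24, adjusted p = 0.0114). This group holds the 2 libraries rich in mitochondrial RNA, and the count was 0 without both and 0 without replicate 3 alone. At 1/5 LD50 the count was 0, where 15.4% of all genes differed. At 1/2 LD50 Isg15 was lower (1.60, 1.44 and 0.598 FPKM; -0.99 ± 0.24, adjusted p = 0.0104), where 8.39% did, a call that ended when saline replicate 2 or 3, or replicate 3 of that group, was left out. At day 14 Lgals3bp was lower at all 3 doses, by -0.71 ± 0.17 at 1/10 LD50 (3.76, 3.997 and 3.76 FPKM; adjusted p = 0.0487), -0.79 ± 0.17 at 1/5 LD50 (3.13, 3.99 and 3.64 FPKM; adjusted p = 0.0426) and -0.77 ± 0.17 at 1/2 LD50 (3.16, 3.96 and 3.85 FPKM; adjusted p = 0.0335). It was joined by Isg15 at 1/10 LD50 (0.936, 1.10 and 1.04 FPKM; -1.08 ± 0.24, adjusted p = 0.0347). The shares of all genes called were 0.435% at 1/10, 0.163% at 1/5 and 0.415% at 1/2 LD50. Without saline replicate 2 or 3 all 3 day 14 counts were 0. Without saline replicate 1, the lowest of the 3, each of them was 5, and the count at day 7 and 1/10 LD50 was 9.

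Few differences between doses passed the test. Between 1/2 and 1/10 LD50 over the 4 days, 0 of the 23 differed, where 0.0408% of all genes did, and the change of Irf7 was 0.07 ± 0.15, of Isg15 0.10 ± 0.12 and of Ifit3 0.24 ± 0.14. At day 3 Irf7 stood at 4.71 ± 0.83 FPKM (SD, n = 3) at 1/10, 4.01 ± 0.96 at 1/5 and 4.62 ± 2.41 at 1/2 LD50. An F-test among the doses called 0 of the 23 at day 1 (0.129% of all genes), 0 at day 3 (0% of all genes) and 0 at day 14 (0.034% of all genes). At day 7 it called 2, where 25.4% of all genes were called: Ifi27 (adjusted p = 0.00217) and Ifi35 (adjusted p = 0.0497). Ifi27 was at 15.3, 12.7 and 6.04 FPKM at 1/10, 16.9, 24.7 and 22.7 at 1/5 and 19.7, 16.1 and 18.9 at 1/2 LD50, and neither gene was called without the 2 libraries rich in mitochondrial RNA, both of the 1/10 group, or without replicate 3 of that group alone. A dose effect that differs between days was called in 0 of the 23, where 1.59% of all genes were.

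The interferons themselves were close to 0. Of 10 interferon genes none (0) met the testing limit, their summed level did not exceed 0.112 FPKM in any library, and Ifnb1 was at 0 in all 39. The receptors were expressed at a summed 34.3 to 41.7 FPKM. Of 5 tested, Ifnar2 alone rose from day 1 to day 3 (0.22 ± 0.06, adjusted p = 0.0113), where 12.9% of all genes rose. It was chosen after its values were seen. Among the signal transducers, Jak1 fell from day 1 to day 3 (-0.11 ± 0.04, adjusted p = 0.0283), where 10.6% of all genes fell. Against saline, the receptor gene Ifngr2 was lower at day 7 and 1/10 LD50 (-0.21 ± 0.07, adjusted p = 0.0345), where 19.5% of all genes differed. That group holds the 2 libraries rich in mitochondrial RNA, and the call of Ifngr2 was not refitted without them. Jak1 was lower at day 7 and 1/5 LD50 (-0.34 ± 0.06, adjusted p = 0.000637), where 15.4% of all genes differed. Stat3 was lower at day 3 and 1/5 LD50 (-0.26 ± 0.08, adjusted p = 0.0438), where 8.6% did.

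Of 7 tested sensors and adaptors, Ddx58 (RIG-I), which detects viral RNA, rose from day 1 to day 3 by 0.23 ± 0.06 (adjusted p = 0.00553), where 12.9% of all genes rose. It was lower than saline over the 12 soman groups by -0.28 ± 0.07 (adjusted p = 0.0373), where 2.57% of all genes differed. Its adaptor Mavs was lower than saline at day 3 and 1/10 LD50 (-0.38 ± 0.08, adjusted p = 0.00366), where 6.97% of all genes differed. Of 8 genes that restrain the pathway 0 changed from day 1 to day 3, where 12.9% of all genes rose and 10.6% fell. Adar, an RNA-editing enzyme, was lower than saline at day 7 and 1/10 LD50 (-0.27 ± 0.06, adjusted p = 0.00178), while Trim24 was higher there (0.23 ± 0.07, adjusted p = 0.0221). In that group 19.5% of all genes differed, and it holds the 2 libraries rich in mitochondrial RNA. The calls of Adar and Trim24 were not refitted without those libraries. All calls against saline given here rest on the same 3 saline libraries as above.

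A second list of interferon-stimulated genes, not among the 32, was read in the same way. Of its 55 genes found, 32 met the testing limit. How many genes of this or the other pathway and marker lists met it only through day 3 libraries is not given here. Their rises at day 3 may therefore include genes tested because they were high there. Of its 32 tested genes 13 rose and 1 fell from day 1 to day 3, where 12.9% of all genes rose and 10.6% fell, with a median of 0.14. From day 3 to day 7, 6 fell and 0 rose, where 3.97% of all genes fell and 2.1% rose. Ifi27l2a, a relative of Ifi27 chosen after its values were seen, went from 0.340 to 1.12 FPKM at day 1 to 2.44 to 6.29 at day 3, a log2 change of 1.41 ± 0.16 (adjusted p = 8e-07). Ifitm3, which blocks virus entry, rose by 0.81 ± 0.14 (adjusted p = 0.000127), and at day 14 and 1/2 LD50 it was below saline by -1.198 ± 0.24 (adjusted p = 0.0152). Rnf213, a large ubiquitin ligase, had day means of 1.14 FPKM at day 1 and 1.29 at day 3, and was lower than saline over the 12 soman groups by -0.54 ± 0.10 (adjusted p = 0.00395).

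Markers of several cell types moved between the same days, to be read against the shares of all genes: 12.9% rose and 10.6% fell from day 1 to day 3. The sum of 14 microglial markers was 139 to 182 FPKM at day 1 and 143 to 195 at day 3, and 0 of the 14 passed the test for that step. Of 12 endothelial markers 6 rose from day 1 to day 3, and their sum went from 386 to 496 FPKM to 463 to 590. The largest of these was Ly6a (1.72 ± 0.20, adjusted p = 6.41e-07), which is itself known to respond to interferon. Of 13 tested meningeal fibroblast markers 10 fell, and the sum of all 14 went from 69.1 to 94.4 FPKM to 55.3 to 73.5. Of 10 tested choroid plexus markers 7 fell. Of the 3 tested leukocyte markers none (0) changed. From day 7 to day 14, 8 of 14 microglial, 6 of 12 endothelial and 5 of 5 red cell markers fell, where 11.5% of all genes fell. From day 3 to day 7, 1 endothelial and 0 microglial markers passed. The part of these cell types in the levels of the 32 genes was not tested.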

How the data were processed

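Brain RNA of 39 mouse samples was extracted with Trizol and purified on poly(dT) beads before cDNA synthesis, per the labels' protocols. The deposited values are FPKM, 1 table of 47561 genes; reads were aligned with HISAT2 against a build named GRCh38, per the submitters' processing notes, which is a human build. The program that computed FPKM is not given in the sources used here. Low values gave no whole reads back, so depth is unknown and no interval for counting error is given. FPKM sums were 296322 to 342230.

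Groups came from the labels. Genes at 1 FPKM or more in at least 3 libraries (14701) were fitted as log2(FPKM + 1) in 1 model of 13 group means with limma 3.58.1 in R 4.3.3 (eBayes with trend). The Benjamini-Hochberg adjustment covered the 14701 fitted genes, with a threshold of 0.05, and p-values measure the spread between replicates. The fit took all 39 libraries as independent, and why 7 of them lie between their replicates is not known. If those were not independent, the SEs would be too small. Day and dose contrasts used the same fit, which was tried on simulated data. Those data were drawn with independent noise in every library, so they cannot show what dependence between libraries would do. Named were, per comparison, up to 3 of the list with the smallest p past the threshold, always Isg15, Irf7 and Ifit3, and up to 2 genes per pathway list against saline; other names were chosen after their values were seen. The 32 genes, the other lists and the tests were chosen with earlier results of these data known. Figures were drawn with matplotlib.

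Alternatives were another pseudocount (0.1), no limit on low values, median-ratio scaling, replicate as a block, only the groups compared, and leaving out libraries. The deviations of same-numbered replicates had a median correlation of 0.005 over 234 pairs, with 39 over 0.1. In 1 of 78 pairs of groups (1/10 and 1/5 LD50 at day 3) all 3 were over 0.1; the numbers were not treated as pairs. Promoter windows are RefSeq's, build GRCm38.p6. Not every gene of the pathway lists is reported here.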

Additional observations from a re-analysis of the deposited data

How the results depend on the processing

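No change past the threshold took the other sign under the alternatives tried (0). Of 120 named changes, 6 below the threshold took both signs, all of Irf7, Ifit3 or Isg15. Of the counts, 405 stayed within 1.5 times while 134 did not. The rise from day 1 to day 3 (19 genes) was 16 to 24 under all of them. The fall from day 3 to day 7 (11) was 4 with only the groups compared and 8 to 14 leaving out 1 library. The fall from day 7 to day 14 (5) was 8 with a pseudocount of 0.1, 2 without a limit on low values, 2 without the 2 libraries rich in mitochondrial RNA, 1 without the 7 libraries lying between their replicates, and 2 to 7 leaving out 1 library. Day 14 against day 1 (0) gave 1 with only the groups compared. Variation over days (21) was 19 to 21 leaving out 1 library and 18 without the 7.

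Every count against saline that was above 0 became 0 without the 7 libraries. Leaving out 1 library, the counts at 1/10, 1/5 and 1/2 LD50 ran from 0 to 6, 0 to 3 and 0 to 0 at day 1, from 1 to 3, 0 to 0 and 0 to 2 at day 3, from 0 to 9, 0 to 4 and 0 to 5 at day 7, and from 0 to 5 at each dose at day 14. For the means over doses they ran from 0 to 7 at day 1, 1 to 4 at day 3, 0 to 10 at day 7 and 0 to 10 at day 14, and for the 12 groups together from 0 to 6. With a pseudocount of 0.1, day 1 at 1/5 LD50 gave 1 and day 14 at 1/2 LD50 gave 3. Without a limit on low values, day 3 at 1/5 LD50 and all doses at day 14 gave 0, the mean of 12 groups 1, and the day 1, day 3 and day 7 means 2, 1 and 4. Median-ratio scaling gave 1 for day 1 at 1/5 LD50, 2 for day 7 at 1/5 LD50, 1 and 2 for day 14 at 1/10 and 1/5 LD50, and 1 for the interaction of dose and day. With only the groups compared, day 3 at 1/2 LD50, day 7 at 1/10 LD50 and all doses at day 14 gave 0, and the day 3 and day 7 means 1 each. Without the 2 libraries rich in mitochondrial RNA, day 7 at 1/10 LD50 gave 0 and the mean of 12 groups 4.

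The difference among doses at day 7 (2) gave 1 without a limit on low values, with median-ratio scaling and without the 7 libraries, 0 with only the groups compared and without the 2 libraries rich in mitochondrial RNA, and 0 to 3 leaving out 1 library. The replicate block gave 1 there and 1 for day 1 at 1/5 LD50, and moved no other count by over 1.5 times. It ended the calls of Ifi44 at day 1 and Xaf1 at day 3 against saline and of Xaf1 from day 7 to day 14. That interaction (0) was 0 to 1 leaving out 1 library. Fewer samples or genes enter the fits that leave out libraries or genes; otherwise the cause was not tested. Depth is unknown, and 17 of the 32 genes lay below a mean of 1 FPKM, where changes are understated.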
